A study of Mus musculus with 2 samples.

Results

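The common gamma chain cytokine receptors and the interleukin 15 presentation pair were followed as a group of 7 genes, Il7r, Il2rb, Il2rg, Il4ra, Il21r, Il15 and Il15ra, out of 27188 genes listed for either of 2 single-cell libraries. They were chosen by name, and all 7 were listed in both libraries. The libraries hold leukocytes of MC38 tumours, a mouse colon carcinoma line grown under the skin of C57BL/6 mice, with the genotype given as WT. One library is labelled Control, and the PBM library came from tumours given pulsed photobiomodulation, a light treatment, every day from day 7. Tumours of both groups were taken on day 14, CD45+ cells were sorted, and the cells of a condition were pooled into 1 library. The number of mice behind each pool is not given in the sources used here, so no value below has a replicate, no test between conditions was possible, and every interval covers counting error only.

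Interleukins 2, 4, 7, 9, 15 and 21 all signal through a receptor that contains the common gamma chain, encoded by Il2rg, joined to a chain that sets which cytokine is bound. Receptor binding activates the kinases JAK1 and JAK3 and then STAT proteins, and these signals keep naive and memory T cells alive, drive the division of activated T cells and sustain NK cells. Interleukin 15 is unusual in that it is mostly held on the surface of the producing cell by IL-15Rα and shown from there to neighbouring cells that carry the beta and gamma chains.

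The 7 genes lie on 5 chromosomes of the mouse genome in the RefSeq annotation of GRCm38.p6, the assembly that mm10 denotes. Il7r spans chr15:9506159-9529941, Il2rb chr15:78479256-78511621, Il2rg chrX:101264385-101268255, Il15 chr8:82331624-82403252 and Il15ra chr2:11705172-11733985. Il4ra (chr7:125552271-125579474) and Il21r (chr7:125603252-125634397) are neighbours, separated by 23.8 kb with 0 annotated genes between them. RefSeq promoter windows were matched for 5 of the 7 genes. Windows are shown for Il7r, Il2rg and Il21r, which held a match to a motif searched, as did 1 of the 2 Il15ra windows, which is not shown (CCGGAAG, 104 bases before its start). Each is the 250 bases before a transcript start of the RefSeq promoter table, read 5′ to 3′ on the gene's strand. For Il21r and Il7r that start lies inside the gene span given above, so that 177 and 65 of the bases shown are within the gene. Capitals mark matches, on either strand, to the Ets family cores CCGGAAG and CAGGAAG, the forkhead core TGTTTAC and the STAT element TTCNNNGAA.
Il7r (chr15:9529877-9530126, minus strand): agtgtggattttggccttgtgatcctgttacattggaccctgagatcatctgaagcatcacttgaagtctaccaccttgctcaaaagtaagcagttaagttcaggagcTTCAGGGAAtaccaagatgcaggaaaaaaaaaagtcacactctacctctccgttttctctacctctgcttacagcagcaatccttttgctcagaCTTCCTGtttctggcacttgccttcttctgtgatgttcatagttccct
Il2rg (chrX:101268256-101268505, minus strand): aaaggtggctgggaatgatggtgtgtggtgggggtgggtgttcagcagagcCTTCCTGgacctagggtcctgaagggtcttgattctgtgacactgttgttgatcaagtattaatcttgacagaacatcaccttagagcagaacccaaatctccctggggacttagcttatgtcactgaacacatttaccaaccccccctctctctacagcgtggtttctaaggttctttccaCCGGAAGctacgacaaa
Il21r (chr7:125603179-125603428, plus strand): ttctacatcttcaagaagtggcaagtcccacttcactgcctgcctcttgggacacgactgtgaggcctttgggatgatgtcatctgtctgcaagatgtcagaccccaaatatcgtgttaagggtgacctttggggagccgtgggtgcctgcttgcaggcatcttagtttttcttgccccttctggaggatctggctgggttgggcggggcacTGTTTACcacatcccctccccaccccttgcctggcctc

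The Il7r window held 1 CAGGAAG match 48 bases before that transcript start and 1 TTCNNNGAA match 142 bases before it. The Il2rg window held a CCGGAAG match 17 bases and a CAGGAAG match 199 bases before the start, and the Il21r window a TGTTTAC match 38 bases before it. Of 32851 windows of the same length, 6.91% held CCGGAAG, 10.8% CAGGAAG, 3.17% TGTTTAC and 7.02% TTCNNNGAA. A match describes the letters and is no evidence of binding.

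The Control library held 11238 barcodes and 104673228 UMIs (unique molecular identifiers, 1 per captured transcript), and the PBM library 13962 barcodes and 86159897 UMIs, with medians of 5621.5 and 5143.5 UMIs per barcode. After filtering, 11096 and 13059 cells were clustered together without the 7 genes or the wider pathway list, and clusters were named from marker genes. T-like cells numbered 2601 in the Control library and 6925 in the PBM library, NK-like cells 1329 and 205, B-like cells 182 and 4969, and monocyte/macrophage-like cells 5107 and 175. The libraries shared 1991 cell names, which are running numbers and not sequences. The labels call the cells tumour cells, but Ptprc, which encodes CD45, was read in each of these classes at 215 to 999 counts per 1000000 UMIs of the class (CPM), and the summed CPM of 7 epithelial markers was at most 9.89. A Control cluster led by Sparc (1213 cells, stroma-like) had Ptprc at 28.2 CPM and serves below as a class with few leukocyte transcripts. A level below is the summed UMIs of a class in CPM with its exact Poisson 95% interval. RNA released by broken cells enters every droplet, and from markers of foreign classes its share was 11.2% to 13.0% of the library's average in the 4 main classes of the Control library and 14.5% to 21.6% in those of the PBM library.

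Il2rg, the shared chain itself, was read in every class and was highest in lymphocytes. In T-like cells it stood at 533 CPM (522 to 545) in the Control library and 470 CPM (464 to 476) in the PBM library. In NK-like cells it was 483 CPM (469 to 497) and 510 CPM (467 to 556), and in B-like cells 283 CPM (240 to 331) and 322 CPM (315 to 329). The intervals of the 2 libraries overlapped in NK-like and B-like cells and not in T-like cells, where the log2 ratio of PBM over Control was −0.18 (−0.22 to −0.15) and turned to 0.12 with TMM scaling factors. Monocyte/macrophage-like cells had 130 CPM in the Control library and 203 CPM (169 to 243) in the PBM library. Across T subsets the level kept a narrow band, from 478 CPM in the exhausted-effector CD8 subset to 651 CPM in regulatory T-like cells of the Control library, and from 395 CPM in memory-like CD8 cells to 654 CPM in the gamma-delta or innate-like subset of the PBM library. In the Sparc-led cluster it was 38.9 CPM. Of 17 neighbouring pairs in the Control order of levels, 3 had intervals that did not overlap, and of 11 in the PBM order also 3. Such counts depend on the UMIs of a gene and were not taken over all genes.

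**Figure D1:**
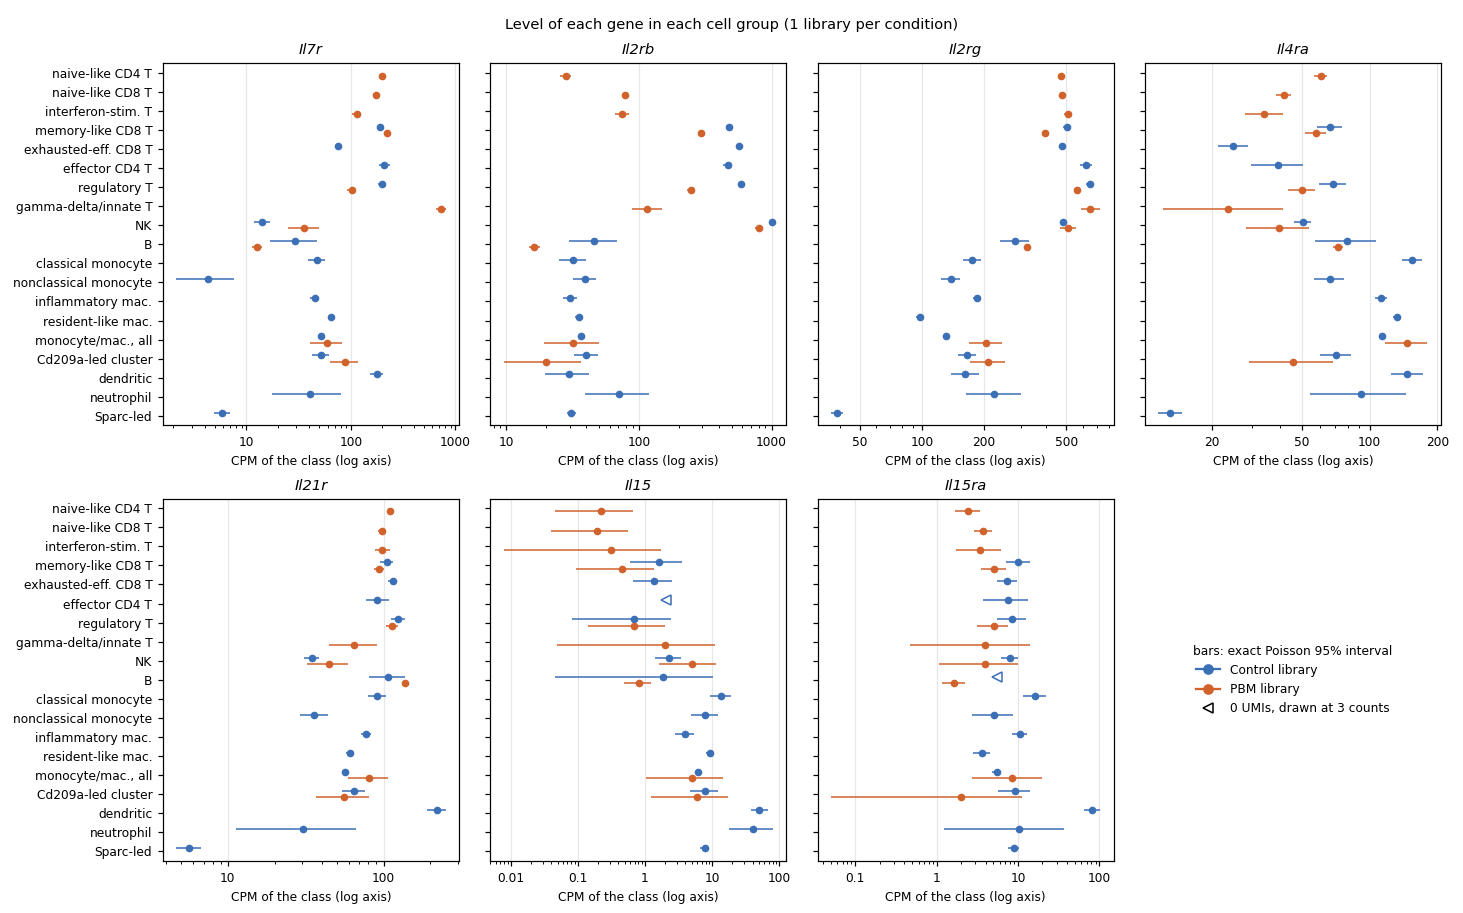
Level of each of the 7 genes (CPM of the class, log axis) in each cell group with at least 50 cells, with Control in blue and PBM in orange. Bars are exact Poisson 95% intervals and open triangles mark 0 UMIs, drawn at 3 counts. Il2rb lies at 468 to 590 CPM in the 4 Control T subsets and at 28.0 to 296 CPM in the 6 PBM T subsets drawn, while Il2rg stays within 395 to 654 CPM in all of them.

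Il7r encodes the alpha chain of the interleukin 7 receptor, which marks naive and memory T cells and is known to be lowered on newly activated ones. In T-like cells as a whole it was 144 CPM (138 to 150) in the Control library and 170 CPM (167 to 174) in the PBM library, a log2 ratio of 0.24 (0.17 to 0.31). That small difference hid larger ones among subsets. The highest level of any group was 726 CPM (654 to 804) in the gamma-delta or innate-like T cells of the PBM library, 102 cells, and its interval lay apart from all others. Memory-like CD8 cells, whose Control cells also had NK and macrophage genes among their leading genes, had 191 CPM (177 to 206) in the Control library and 221 CPM (209 to 232) in the PBM library. Naive-like CD4 and naive-like CD8 cells, which were compared in the PBM library alone because the Control library held 14 and 5 of them, had 196 CPM (189 to 204) and 172 CPM (166 to 179). Effector CD4 cells of the Control library had 209 CPM (186 to 234), on a par with regulatory T-like cells (197 CPM, 181 to 213).

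The lowest T cell levels of Il7r were in 2 groups that each belong to 1 library. Exhausted-effector CD8 cells, 845 in the Control library and 11 in the PBM library, had 76.0 CPM (69.8 to 82.6). The Hist1h2ae-led sub-cluster of the PBM library (276 cells, left unnamed) had 42.0 CPM (35.8 to 49.0). The whole-class comparison depended on which cells entered it. Without the exhausted-effector subset the log2 ratio was −0.25, among cells with Cd8a or Cd8b1 but no Cd4 UMIs it was 0.70 (0.59 to 0.80), and among cells with Cd4 but no Cd8 UMIs it was −0.16 (−0.31 to −0.02). Il7r therefore had no single direction in T-like cells of these 2 libraries.

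In regulatory T-like cells Il7r was 197 CPM (181 to 213) in the Control library and 102 CPM (92.5 to 112) in the PBM library, a log2 ratio of −0.95 (−1.13 to −0.77). The intervals did not overlap. Among all T-like cells with a Foxp3 UMI, 512 and 516 cells, the ratio was −0.89 (−1.08 to −0.70).

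Outside lymphocytes Il7r was read in dendritic and macrophage groups of the Control library. The dendritic-like cluster, led by Ccl22 and Fscn1 (157 cells), had 177 CPM (151 to 205), within the range of the T subsets. After each cell was thinned to 1000 UMIs, 21.0% of these cells (14.9% to 28.2%) held an Il7r UMI, against 14.0% of Control T-like cells and 0.907% of the Sparc-led cluster. Monocyte/macrophage-like cells as a whole had 52.3 CPM (50.3 to 54.3) in the Control library, and because they were so many they held 48.8% of all Il7r UMIs of that library, against 40.6% in T-like cells. In the PBM library 94.0% of Il7r UMIs were in T-like cells. Within the class the levels differed widely. The interferon-led sub-cluster (Rsad2, Ifit2 and Ifit1, 67 cells) had 152 CPM (121 to 189), and the Gpnmb-led macrophage sub-cluster (443 cells) 114 CPM (105 to 124). The naming rule called the interferon-led cells classical monocytes. A sub-cluster led by the same genes was named inflammatory macrophage at resolution 2.0, with at most 5% mitochondrial UMIs and with doublets kept. The Cbr2-led macrophages (507 cells) had 14.7 CPM (11.6 to 18.4), and nonclassical monocytes (608 cells) 4.30 CPM (2.15 to 7.69), which is no more than the 8.42 CPM that free RNA could supply there. The T cell marker list summed to 147 CPM in this class, 8 of 8 genes, against 5942 CPM in Control T-like cells; its part in the Il7r values was not tested.

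**Figure D2:**
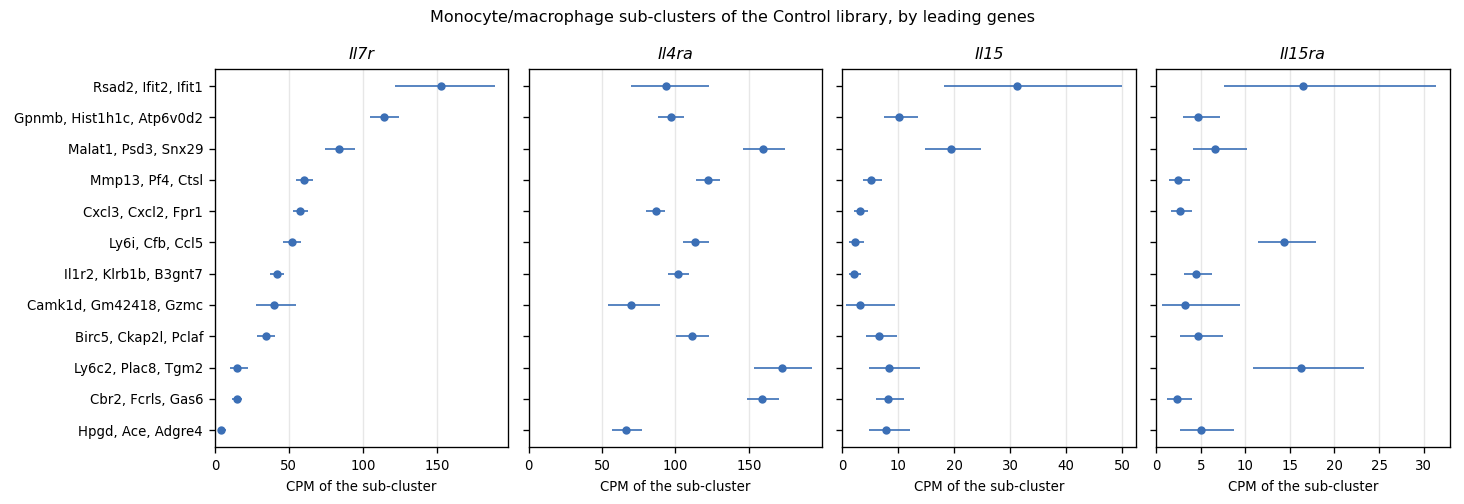
Levels (CPM, linear axes) of Il7r, Il4ra, Il15 and Il15ra in the 12 monocyte/macrophage-like sub-clusters of the Control library, named by their leading genes and ordered by Il7r, with exact Poisson 95% intervals. Il7r runs from 4.30 to 152 CPM, and the Rsad2-led sub-cluster is highest for both Il7r and Il15.

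Il2rb encodes the beta chain shared by the receptors of interleukins 2 and 15, and is high on NK cells and on activated and memory CD8 T cells. In T-like cells it was 535 CPM (523 to 546) in the Control library and 118 CPM (115 to 121) in the PBM library, 4.54-fold lower, a log2 ratio of −2.18 (−2.23 to −2.13). The intervals were far apart. The NK cell marker list, 8 of 8 genes in both libraries, summed to 1031 CPM in these Control cells and 123 CPM in the PBM cells; its part in the difference was not tested. Of the 7 genes, 3 were at least 2-fold lower in PBM T-like cells with an interval that left out 0, namely Il2rb, Il15 and Il15ra, and 0 were higher. The lower bound of Il15 did not exceed the free RNA level in any of the Control T subsets. Over all 14170 genes with at least 20 UMIs in this class, 18.5% were lower by the same rule, 6.06% higher and 24.5% either. The median log2 ratio of the 7 genes was −0.18, next to −0.20 over all genes.

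The 2 libraries held different subsets, and the subsets differed in Il2rb. The 4 Control subsets ranged from 468 CPM in effector CD4 cells to 590 CPM in regulatory T-like cells, with the exhausted-effector CD8 subset at 566 CPM (549 to 584). The PBM subsets ranged from 28.0 CPM (25.2 to 31.0) in naive-like CD4 cells through 78.3 CPM in naive-like CD8 cells and 115 CPM in the gamma-delta or innate-like subset to 296 CPM (283 to 309) in memory-like CD8 cells. The groups did not overlap. A smaller difference was present inside clusters that both libraries filled, though such a cluster may hold different cells from each library. Among T sub-clusters the effector CD4 one held 350 Control and 9 PBM cells, and the Izumo1r-led regulatory one 9 and 746. The Klrg1-led regulatory one held 567 and 8. The part of this in the ratios within clusters was not tested. In the Cd160-led cluster (423 Control and 559 PBM cells) Il2rb was 580 and 309 CPM, a log2 ratio of −0.91 (−1.02 to −0.80). In the Foxp3-led cluster (572 and 125 cells) it was 600 and 316 CPM, −0.93 (−1.10 to −0.76), and in the Izumo1r-led cluster (418 and 669 cells) 424 and 226 CPM, −0.91 (−1.05 to −0.77). Each of these 3 ratios falls short of the 2-fold line. The gate on Cd4 UMIs gave 520 and 84.0 CPM and the gate on Cd8 UMIs 520 and 126 CPM.

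In regulatory T-like cells Il2rb was 590 CPM (562 to 618) in the Control library and 245 CPM (231 to 260) in the PBM library, a log2 ratio of −1.27 (−1.38 to −1.15), and −1.26 in the gate on Foxp3. It was the 1 of 6 genes with enough UMIs that was called lower there, with 0 called higher, where 13.2% of all genes were lower, 5.68% higher and 18.8% either. The median of the 6 was −0.61 and that of all genes −0.12. The 2 libraries filled different sub-clusters of this subset, a Klrg1-, Il10- and Foxp3-led one in the Control library (567 cells) and an Izumo1r-led one in the PBM library (746 cells). In memory-like CD8 cells Il2rb was 479 CPM (457 to 502) and 296 CPM (283 to 309), a log2 ratio of −0.70 (−0.79 to −0.60). The NK cell marker list, 8 of 8 genes in both, summed to 1511 and 287 CPM in these cells; its part in the difference was not tested. There 0 of 6 genes were called in either direction, against 2.42% of all genes higher, 9.96% lower and 12.4% either, and the medians were −0.28 and −0.25. This subset too was filled from different sub-clusters, led by Gzma, Ccl5 and Fcer1g in the Control library and by Gzmm and Samd3 in the PBM library. Among the 10 leading genes of the Control sub-cluster (751 cells) were Ccl5 and Klrk1 of the memory CD8 list, Gzma of the NK list and C1qb and C1qc of the macrophage list, together with Tyrobp and Klrc1. The values of this subset therefore compare 2 sub-clusters and may not describe 1 cell type. With a clustering resolution of 0.5 its Il2rb ratio was 0.01.

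NK-like cells had the highest Il2rb of all groups in both libraries, 1003 CPM (983 to 1023) in the Control library and 808 CPM (754 to 866) in the PBM library. The log2 ratio was −0.31 (−0.42 to −0.21), and the intervals did not overlap. After thinning, 64.0% and 59.0% of NK-like cells held an Il2rb UMI, against 4.04% of the Sparc-led cluster in the Control library and 1.73% of B-like cells in the PBM library. Il2rb in B-like cells was 45.9 CPM (29.7 to 67.8) and 16.2 CPM (14.7 to 17.9). Free RNA could supply 26.6 and 12.9 CPM of these, and the monocyte/macrophage marker list, 12 of 12 genes in both libraries, summed to 1660 and 419 CPM in the same cells; its part in the difference was not tested. Monocyte/macrophage-like cells had 36.6 and 31.9 CPM, next to a free RNA level of 26.2 and 19.3 CPM.

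**Figure D3:**
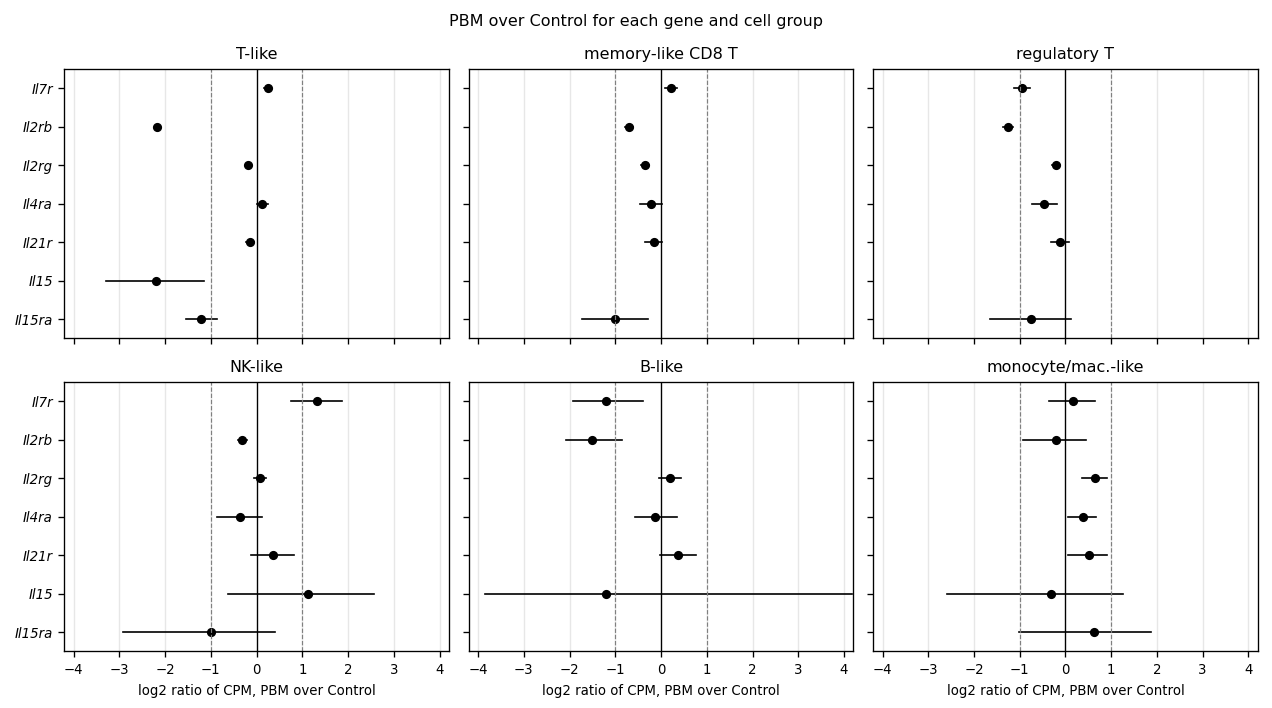
Log2 ratio of CPM, PBM over Control, for each gene in 6 cell groups, with exact conditional binomial 95% intervals. Dashed lines mark a 2-fold difference, and a gene without enough UMIs or without a ratio is left blank. Il2rb lies beyond the line in T-like, regulatory T-like and B-like cells, and Il7r beyond it on opposite sides in NK-like and B-like cells.

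Il7r and Il2rb were also read together, cell by cell, after thinning to 1000 UMIs. In NK-like cells of the Control library 62.6% of cells held Il2rb alone, 1.43% both and 0.451% Il7r alone. Exhausted-effector CD8 cells had 41.2% with Il2rb alone, 3.08% with both and 3.43% with Il7r alone. At the other end, 15.3% of naive-like CD4 cells in the PBM library held Il7r alone, 0.557% both and 1.67% Il2rb alone, and naive-like CD8 cells had 13.2%, 1.16% and 5.39%. Memory-like CD8 cells had 12.0% Il7r alone, 4.62% both and 28.3% Il2rb alone in the Control library and 15.2%, 3.26% and 21.1% in the PBM library. Regulatory T-like cells had the largest share with both, 8.16% (6.06% to 10.7%) in the Control library, against 1.99% (1.12% to 3.26%) in the PBM library. If the 2 genes fell on cells independently, 7.37% and 2.18% would hold both, which lies inside these intervals. The gamma-delta or innate-like subset was the 1 group with 36.3% of cells holding Il7r alone. Shares at this depth are of cells with a UMI and understate how many cells express a gene.

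**Figure D4:**
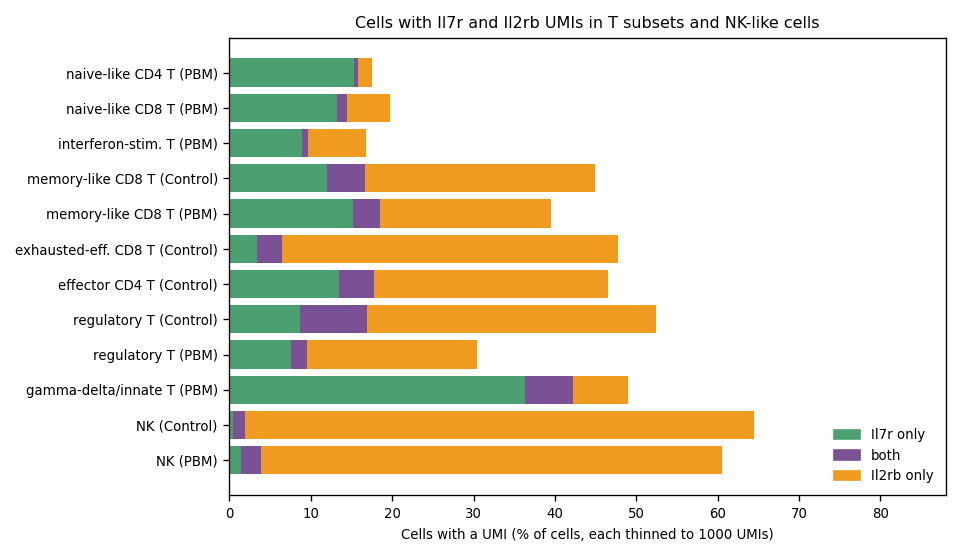
Share of cells (percent, each cell thinned to 1000 UMIs) with a UMI of Il7r alone (green), of both genes (purple) and of Il2rb alone (orange) in T subsets and NK-like cells with at least 50 cells. Il2rb alone leads in NK-like cells at 62.6% in the Control library, and Il7r alone leads in the naive-like and gamma-delta or innate-like subsets of the PBM library.

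NK-like cells had Il7r at 14.2 CPM (11.9 to 16.7; 138 UMIs) in the Control library and 35.5 CPM (24.9 to 49.2; 36 UMIs) in the PBM library, a log2 ratio of 1.33 (0.76 to 1.86). It was the 1 of 7 genes called higher in this class, and 0 were called lower, while 5.55% of all genes were higher, 5.37% lower and 10.9% either. The medians were 0.08 for both the 7 genes and all genes. Free RNA could supply 6.08 and 21.2 CPM, and with it subtracted the log2 ratio was 0.87 and no longer called. The T cell marker list, 8 of 8 genes in both libraries, summed to 842 and 1563 CPM in the same cells; its part in the ratio was not tested. In B-like cells Il7r was 29.4 CPM (16.8 to 47.7) and 12.7 CPM (11.3 to 14.1), a log2 ratio of −1.21 (−1.94 to −0.39). The 16 Control UMIs came from 3 cells, and the PBM level was below the 16.1 CPM of free RNA. B-like cells had 2 of 7 genes called lower, Il7r and Il2rb, and 0 higher, against 5.72% of all genes lower, 1.28% higher and 7.00% either; the median of the 6 genes with a ratio was −0.66 and that of all genes −0.14.

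Il4ra encodes the chain that binds interleukin 4, used with the gamma chain or with Il13ra1, and had its highest levels in myeloid cells. In the Control library it was highest in classical monocytes (154 CPM, 139 to 171), dendritic-like cells (147 CPM, 124 to 173) and resident-like macrophages (132 CPM, 127 to 137). The interval of dendritic-like cells overlapped both others, while that of classical monocytes lay above that of resident-like macrophages. Monocyte/macrophage-like cells as a whole had 113 CPM (110 to 116) in the Control library and 146 CPM (117 to 180) in the PBM library and held 75.8% of the Control UMIs of the gene. Within the class it ran from 66.4 CPM in nonclassical monocytes to 173 CPM in the Ly6c2-led sub-cluster. T-like cells had 44.7 CPM (41.5 to 48.2) and 48.8 CPM (46.9 to 50.8), and B-like cells 78.9 and 72.3 CPM. Its direction in T-like cells varied with the cells taken. The log2 ratio was −0.83 (90.8 and 51.0 CPM) in the Cd160-led cluster, −0.36 (67.9 and 53.1 CPM) in the Foxp3-led one, 0.11 (41.3 and 44.5 CPM) in the Izumo1r-led one and 0.46 (32.6 and 44.8 CPM) in the gate on Cd8 UMIs. The lowest T subset of the Control library was the exhausted-effector CD8 one, at 24.8 CPM (21.3 to 28.7).

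Il21r encodes the interleukin 21 receptor chain, used by B cells, T cells and NK cells. Its highest level was in the dendritic-like cluster, 219 CPM (191 to 250), apart from the next group, and in the PBM library in an Ebf1- and Bank1-led cluster (164 CPM, 149 to 179; 640 cells, left unnamed although all 8 B cell markers were met). B-like cells had 106 CPM (80.9 to 138) in the Control library and 137 CPM (132 to 141) in the PBM library, and T-like cells 111 CPM (106 to 117) and 101 CPM (97.7 to 103). NK-like cells had 34.5 CPM (30.9 to 38.4) and 44.4 CPM (32.4 to 59.4). In the Control library this was below the interval of every T subset, and in the PBM library it overlapped the gamma-delta or innate-like subset (64.6 CPM, 44.5 to 90.7). T subsets differed little, from 91.4 to 123 CPM in the Control library. The Sparc-led cluster had 5.65 CPM. The neighbouring genes Il4ra and Il21r thus had different orders over the same cells: resident-like macrophages were above all T subsets of the Control library for Il4ra and below all of them for Il21r.

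Il15, the ligand, was scarce throughout. The Control library held 614 UMIs of it (6.00 CPM) and the PBM library 50 (0.645 CPM), which mixes the number of producing cells with the level per cell. The dendritic-like cluster had the highest level, 50.7 CPM (37.7 to 66.9; 50 UMIs), beside neutrophils with 40.7 CPM (17.6 to 80.2; 8 UMIs). The interferon-led sub-cluster of monocyte/macrophage-like cells had 31.2 CPM (18.2 to 50.0) and the Malat1-led macrophages 19.3 CPM (14.8 to 24.8). Resident-like macrophages as a whole had 9.25 CPM (7.98 to 10.7), while the Ly6i-led inflammatory macrophages had 2.18 CPM (1.13 to 3.81). The Sparc-led cluster had 7.81 CPM (6.65 to 9.10) where free RNA could supply 0.649 CPM. Monocyte/macrophage-like cells had 6.23 CPM (5.57 to 6.95) in the Control library and 5.04 CPM (1.04 to 14.7; 3 UMIs) in the PBM library, and a difference within that interval was not detectable at this depth. T-like cells had 1.35 CPM (21 UMIs) and 0.295 CPM (14 UMIs), a log2 ratio of −2.19 (−3.28 to −1.15), which in the gate on Cd4 UMIs was 0.89 on 1 and 4 UMIs. In the Control library Il15 was 1.64 CPM in memory-like CD8, 1.39 in exhausted-effector CD8, 0.680 in regulatory T-like and 0 in effector CD4 cells. No lower bound of these exceeded the free RNA level, and its part in the ratio was not tested.

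Il15ra, which holds interleukin 15 at the cell surface, was highest in the same dendritic-like cluster at 82.2 CPM (65.3 to 102), and no other group of either library reached its interval. Next came an unnamed Gm10800-led cluster (17.7 CPM, 8 UMIs), classical monocytes (16.3 CPM, 11.5 to 22.4) and the Ly6i-led inflammatory macrophages (14.4 CPM, 11.4 to 17.9). Resident-like macrophages had 3.57 CPM (2.80 to 4.49), against 10.5 CPM (8.51 to 12.8) in all inflammatory macrophages. For Il15 the same 2 groups stood the other way round, at 9.25 and 3.94 CPM (2.76 to 5.45), so ligand and presenter had opposite orders there. T-like cells had 8.35 CPM (6.98 to 9.92) and 3.62 CPM (3.10 to 4.21), a log2 ratio of −1.21 (−1.54 to −0.87). It was −1.37 in the Cd160-led and −1.19 in the Izumo1r-led cluster, and 0.12 on 25 and 10 UMIs in the Foxp3-led one. B-like cells had 0 UMIs in the Control library, where 3 counts would be 5.51 CPM, and 41 UMIs (1.64 CPM) in the PBM library. After thinning, 0 of 5107 Control monocyte/macrophage-like cells held both Il15 and Il15ra, with 0.607% holding Il15 alone and 0.744% Il15ra alone. If the 2 genes fell on cells independently, 0.00452% would hold both. The 0 therefore cannot show whether they share cells. In the dendritic-like cluster 1 of 157 cells held both, 3.18% Il15 alone and 9.55% Il15ra alone, where independence gives 0.389% with both.

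In monocyte/macrophage-like cells 0 of the 7 genes were called in either direction, while 5.39% of all genes were higher in the PBM library, 4.28% lower and 9.67% either. The medians were 0.37 for the 7 genes and 0.01 for all genes. The PBM side rested on 175 cells, of which 102 lay in a sub-cluster led by the B cell genes Cd79a, Iglc3 and Igkc, and the B cell marker list summed to 36.5 CPM in the Control and 1351 CPM in the PBM cells of the class, 8 of 8 genes in both. The largest ratio was that of Il2rg, 0.64 (0.37 to 0.90), and without that sub-cluster it was 0.81. In the unnamed cluster led by Cd209a, Cd209d and Clec10a (314 and 95 cells) 1 of 7 genes was called lower, Il2rb at 40.0 and 19.9 CPM, and 0 higher, against 7.05% of all genes lower, 9.23% higher and 16.3% either. Free RNA could supply 43.1 and 17.1 CPM of that Il2rb, and the medians were −0.39 and 0.06. Il7r in this cluster was 51.8 CPM (42.9 to 61.9) and 87.7 CPM (63.7 to 118).

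The rest of the pathway was read from a list of 41 genes, of which 40 were found. In T-like cells 38 had enough UMIs, 14 were lower in the PBM library and 4 higher, where 18.5% of all genes were lower and 6.06% higher, with a median log2 ratio of −0.53 next to −0.20 over all genes. Among 4 ligands tested 3 were lower. In regulatory T-like cells the ligands went the other way, with 3 of 3 tested higher (median log2 ratio 2.17), where 5.68% of all genes were higher. In memory-like CD8 cells the 1 ligand tested was lower, where 9.96% of all genes were lower. Il13, a type 2 cytokine, had 114 Control UMIs and 0 PBM UMIs in T-like cells. That is 116-fold lower with the 0 set at 3 counts, a value that rests on this setting and is not a lower limit. Il13ra1, the partner of Il4ra in the type II receptor, was lower (4.37 and 0.232 CPM), and so was Cish, a feedback inhibitor induced by STAT5 (143 and 11.1 CPM, log2 ratio −3.69). Named after their values were seen, Il2ra, the alpha chain of the high-affinity interleukin 2 receptor, was 187 and 23.5 CPM in T-like cells as a whole, and Jak3, the kinase bound to the gamma chain, 194 and 74.2 CPM. The drop of Il2ra did not hold in every cluster that both libraries filled: it was 762 and 240 CPM (−1.67) in the Foxp3-led cluster, 13.2 and 8.81 CPM (−0.58) in the Cd160-led one and, the other way, 35.1 and 150 CPM (2.10, called higher) in the Izumo1r-led one. That cluster may hold different cells from each library. With at most 5% mitochondrial UMIs, a Cxcr6- and Cd4-led cluster held 393 Control and 78 PBM cells. An Izumo1r- and Ikzf2-led one held 18 and 748. The part of this in the Il2ra ratio was not tested. Of 7 inhibitors 3 were lower and 0 higher. Of 7 known regulators of Il7r, 2 were higher and 1 lower, and Klf2, a factor of resting T cells, was 143 and 418 CPM (1.55). Il9r was 1.22 and 3.01 CPM (1.30). Fcer2a, which encodes the B cell protein CD23, had the highest ratio, 5.06, in T-like cells, where the B cell marker list, 8 of 8 genes in both libraries, summed to 203 and 1154 CPM; its part in that ratio was not tested.

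In regulatory T-like cells 36 pathway genes had enough UMIs, 7 were lower in the PBM library and 9 higher, where 13.2% of all genes were lower and 5.68% higher, and the median was −0.11 next to −0.12 over all genes. Il2ra was 751 and 177 CPM (−2.08), Cish 280 and 73.4 CPM (−1.93) and Pim1, a survival kinase gene induced by STAT5, 567 and 202 CPM (−1.49). Bcl2, the survival gene, went the other way at 17.3 and 91.0 CPM (2.39), but in the Foxp3-led cluster it was 17.5 and 11.2 CPM (−0.65), so its direction turned with the cells taken. Il9r was higher at 2.72 and 15.5 CPM (2.51). Fcer2a was also higher (5.26), in cells where the B cell marker list summed to 558 CPM in the Control library and 1482 CPM in the PBM library. Alpha and beta chains of the interleukin 2 receptor were thus both lower in the PBM cells of this subset, while Il2rg was 651 and 565 CPM. In NK-like cells 34 were tested, 3 were lower (Il2ra −3.63, Cish −2.89 and Socs1 −1.52) and 2 higher (Klf2 2.16 and Fcer2a 5.80), where 5.37% of all genes were lower and 5.55% higher. The B cell marker list summed to 164 and 1048 CPM in these cells. In memory-like CD8 cells 9 of 34 were lower, led by Cish (−4.29), Il13ra1 (−4.08) and Socs2 (−3.73), and 1 was higher, Fcer2a (5.05), where 9.96% of all genes were lower and 2.42% higher. There the B cell marker list summed to 241 and 1173 CPM. The part of these B cell markers in the Fcer2a ratios was not tested, nor was that of free RNA in the Il13ra1 ratio. B-like cells had 7 of 34 lower, led by Cish (−2.96), Pim1 (−2.33) and Il2ra (−1.97), and 0 higher, where 5.72% of all genes were lower and 1.28% higher. Cish was thus lower in the PBM library in each of these 5 groups, which share cells where a subset lies in a class. Monocyte/macrophage-like cells had 1 of 34 lower, Socs2 (−1.92), and 6 higher, led by Fcer2a (6.44), Foxo1 (1.98) and Klf2 (1.68), next to 4.28% and 5.39% of all genes, and the Cd209a-led cluster had 7 of 31 lower and 5 higher, next to 7.05% and 9.23%. Of the 175 PBM monocyte/macrophage-like cells, 102 lay in the sub-cluster led by the B cell genes Cd79a, Iglc3 and Igkc. Its part in the ratios of that class was not tested.

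**Figure D5:**
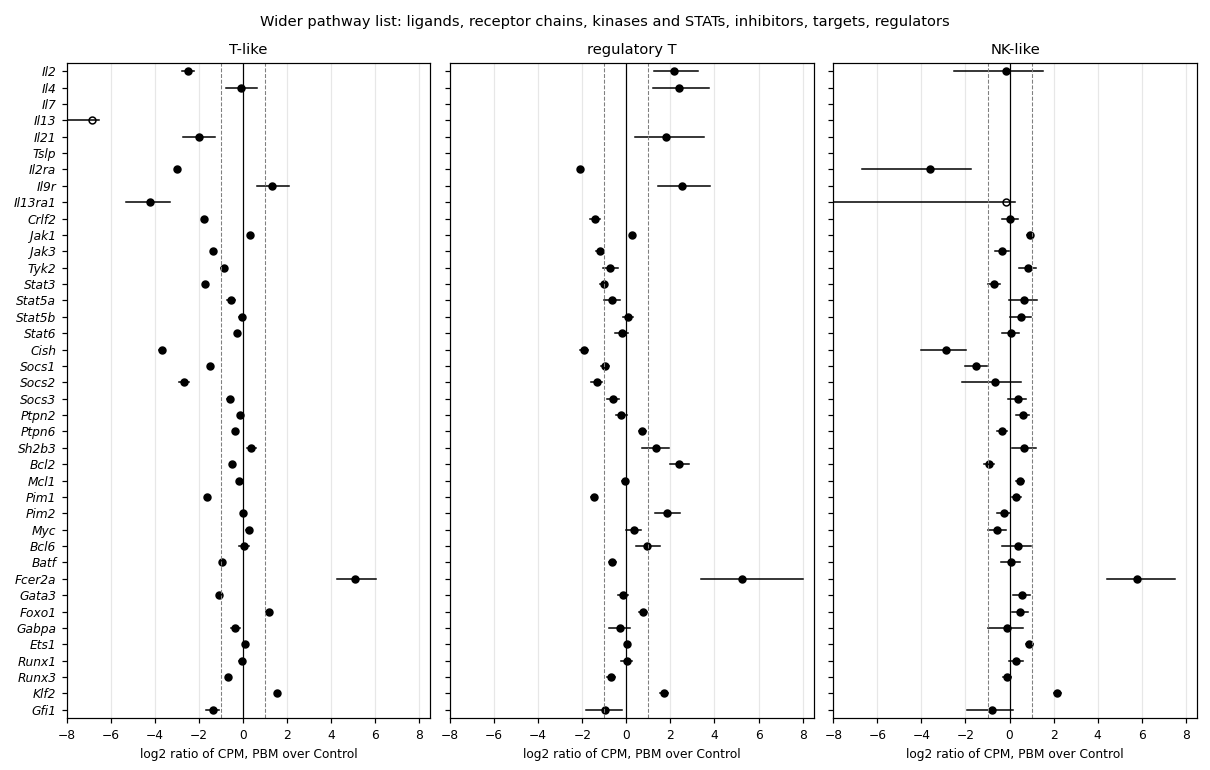
Log2 ratio of CPM, PBM over Control, for the wider pathway list in T-like, regulatory T-like and NK-like cells, with exact conditional binomial 95% intervals; dashed lines mark a 2-fold difference and open circles a ratio in which a library with 0 UMIs was set at 3 counts. Il2ra and Cish lie to the left and Klf2 to the right of the lines in all 3 groups.

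The genes whose levels were most like those of each member were sought over 30 profiles of a group in a library, which share libraries and depth, among 12642 genes; the values are Pearson's r of log2(CPM + 10), given as a description. Il2rb was most like Tbx21 (0.93), the T-bet gene, Cysltr2 (0.92) and Ctla2a (0.92). Il2rg was most like Rasal3 (0.93), Agap2 (0.92) and Pglyrp2 (0.91). Il7r had no gene as close, with Tent5c at 0.75, Aqp3 at 0.74 and AI854703 at 0.74. Il4ra was most like Ccdc71l (0.80), Vps18 (0.79) and Ctss (0.78), Il21r like Rassf2 (0.79), Gpr183 (0.76) and Rftn1 (0.74). Il15 was like Plekhm2 (0.89) and Gcnt2 (0.85), and Il15ra like Vsig10 (0.86), Bcl2l14 (0.84) and Slc4a8 (0.84). In the order of levels 1 of 17 neighbouring pairs lay apart in the Control library and 0 of 11 in the PBM library for each of Il15 and Il15ra. For each of Il7r and Il2rb 6 of 11 pairs lay apart in the PBM library. Such counts depend on the UMIs of a gene and were not taken over all genes, so they do not rank the genes. Il15 had 614 and 50 UMIs and Il15ra 786 and 234, against 5534 and 8605 for Il7r and 20884 and 6909 for Il2rb.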

How the data were processed

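The labels' protocols state a Chromium single-cell 3′ library of sorted CD45+ cells for each condition, and the submitters' processing notes name Cell Ranger 7.2.0 and mm10, while the file header names PISA 0.12. The deposited values are raw UMI counts per gene and cell, not normalized by the authors; the number of table columns left unused was 0. Cells with at least 500 UMIs, 200 genes and at most 10% mitochondrial UMIs were kept (11 and 1 barcodes removed), and 131 (1.17%) and 902 (6.46%) doublets called by Scrublet in the Control and PBM libraries were removed. Both libraries were clustered together with scanpy 1.11.5 (2000 variable genes without the 7 genes, the wider pathway list and mitochondrial, ribosomal, cell cycle and receptor segment genes, 30 components, 15 neighbours, Leiden resolution 1). A class needed at least 3 of its markers, and subsets were clustered again within T-like and myeloid cells. Leading genes of a cluster are its top genes by fold.

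UMIs were summed per class and library and divided by the class total (CPM). Poisson intervals and conditional binomial intervals are exact at 95%; shares of cells have exact binomial intervals. A gene was called when it had at least 20 UMIs over both libraries, a ratio of at least 2 or at most 0.5 and an interval that left out 0 on the log2 scale; classes needed 50 cells in each library. The free RNA share is the median, over markers of other classes, of the level in the class divided by that in its library. These intervals treat UMIs as independent and cannot stand for mice. The calls were tested on simulated data, whose outcome is not reported here. Antisense overlap and near-identical copies were not examined. Levels of different genes were not compared because capture at the 3′ end differs between them. That difference also limits the shares of cells with Il7r alone set beside those with Il2rb alone. Alternatives included clustering settings, doublets kept, TMM factors (edgeR 4.0.16), thinning, free RNA subtracted and gates; those within single clusters and without a doubtful sub-cluster were chosen after seeing the data. The members, lists and tests were chosen with earlier results of these data known. Named pathway genes are up to 3 with the largest ratio in each direction per class, and the likeness genes the top 3 by r, of which 1 is not reported here.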

Additional observations from a re-analysis of the deposited data

Results flagged for a closer look

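Il7r was flagged because it was called in opposite directions in 2 classes under the same contrast, and the difference between the classes was not tested. The log2 ratio of PBM over Control was 1.326 in NK-like cells, on 138 and 36 UMIs, and −1.213 in B-like cells, on 16 and 316 UMIs. In NK-like cells the ratio was 0.96 after thinning and 0.87 with free RNA subtracted, neither of them called, and 1.12 without the Gzmg-led NK cluster. In B-like cells the ratio was −0.91 at resolution 2.0, −0.57 with doublets kept and −0.98 with TMM factors, none of them called.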

How the results depend on the processing

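With 18 alternatives, 46 log2 ratios of single genes gave 436 alternative values, of which 351 lay inside the counting interval of the reported ratio, 83 outside it with the same sign or for a ratio that was not called, and 2 turned the sign of a called ratio: Il15 in T-like cells in the gate on Cd4 UMIs (0.89) and Il15ra in T-like cells within the Foxp3-led cluster (0.12). Ratios that were not called turned sign in 42 further values, over 19 ratios: in T-like cells Il7r ran from −1.04 (called lower, Foxp3-led cluster) to 0.70, Il4ra from −0.83 to 0.46, Il2rg from −0.38 to 0.12 and Il21r from −0.41 to 0.16. The count of genes called lower in T-like cells was 3, and 1 within each of the Foxp3-led, Cd160-led and Izumo1r-led clusters. In B-like cells the count lower was 2, and 1 at resolution 2.0, with doublets kept, with TMM factors, after thinning and with free RNA subtracted. In NK-like cells the count higher was 1, and 0 after thinning and with free RNA subtracted. In monocyte/macrophage-like cells the count higher was 0, and 1 after thinning (Il2rg, 1.05). In the Cd209a-led cluster the count lower was 1, and 0 with at most 5% mitochondrial UMIs, after thinning and with free RNA subtracted. In memory-like CD8 cells the count lower was 0, and 1 with doublets kept, with at most 5% mitochondrial UMIs and with free RNA subtracted. In regulatory T-like cells the count lower was 1, and 2 at resolution 0.5, after thinning and with free RNA subtracted. Some groups did not form with 50 cells in each library and gave no value: regulatory T-like cells at resolution 2.0, memory-like CD8 cells with the pathway genes allowed in the clustering, and the Cd209a-led cluster at resolutions 0.5 and 2.0 and with doublets kept. The cause of these changes was not tested. Il2rb in T-like cells ranged from −2.63 to −0.91 and in regulatory T-like cells from −1.39 to −1.10 over the alternatives run. TMM factors shifted every log2 ratio by 0.31 in T-like, 0.29 in memory-like CD8, 0.24 in B-like, 0.17 in regulatory T-like, −0.06 in monocyte/macrophage-like, −0.18 in NK-like cells and −0.20 in the Cd209a-led cluster. No paired analysis was possible because each condition has 1 library. Depth limits Il15 and Il15ra most, with 3 and 5 UMIs in the PBM monocyte/macrophage-like cells.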
